A study of Mus musculus with 21 samples.

Results

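Transcripts of 9 enzymes of serine, glycine, one-carbon and asparagine metabolism were followed in mouse acute myeloid leukaemia cells. The enzymes, chosen by gene symbol, were Phgdh, Psat1, Psph, Shmt1, Shmt2, Mthfd1, Mthfd1l, Mthfd2 and Asns. Each had a row in all 3 expression tables, which list 16782 genes in any table and 12482 genes in all 3. All 9 enzymes also passed the filter on low values in every table, set 1 log2 unit over each table's floor and required in 3 libraries (2 in the overexpression table).

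RNA was sequenced from 21 libraries in 8 groups of established leukaemia lines, all grown with mouse stem cell factor from the supernatant of a secreting CHO line. The NUP98-NSD1 line carries a flag-tagged fusion of a nucleoporin with a histone methyltransferase and gave 15 libraries. It received UNC1999 or JQEZ5, enzymatic inhibitors of the H3K27 methyltransferase complex PRC2, at 3 µM for 4 days, or DMSO as the control (3 libraries each). In a separate experiment it received a puromycin-selected lentivirus with an shRNA against the H3K4 demethylase gene Kdm5b (shKdm5b) or the empty lentivirus (shEV; 3 libraries each). The MLL-AF9 line, transformed by the MLL-AF9 fusion, received a retrovirus with the demethylase-dead Kdm5b mutant H499A, with wild-type Kdm5b (WT), or with no insert (EV; 2 libraries each). The labels do not say whether replicates were separate cultures, so p-values may measure technical spread only.

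Depth was 12812646 to 18928764 reads per library in the inhibitor experiment, 21273211 to 34813867 in the knockdown and 17341257 to 19973218 in the overexpression. Kdm5b had 34.1, 28.8 and 23.2 normalised counts in the shKdm5b libraries, against 61.6, 94.8 and 67.0 in the shEV libraries, a ratio of means of 0.385 (adjusted p = 0.00401 by limma with no filter). Its mean was 11.6-fold higher in WT than in EV cells and 2.42-fold higher in H499A than in EV cells, and it was 1.46-fold higher with UNC1999 than with DMSO. With JQEZ5 the Kdm5b mean was 1.08-fold that of DMSO and did not pass the test (adjusted p = 0.112, limma). The leukocyte marker Ptprc stood at 273 CPM (read counts scaled to a total of 1000000 in every library) or more in every library.

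Serine is made from a glycolytic intermediate by Phgdh, Psat1 and Psph acting in turn. Serine hydroxymethyltransferases then split serine into glycine and a carbon unit carried by folate, Shmt1 mainly in the cytosol and Shmt2 in mitochondria. Mthfd1 in the cytosol, and Mthfd2 and Mthfd1l in mitochondria, interconvert these folate units, which feed purine and thymidylate synthesis in dividing cells. Asns makes asparagine from aspartate and, like Phgdh, Psat1, Shmt2 and Mthfd2, is a known target of the amino acid stress factor ATF4.

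On GRCm38 (GENCODE M21) Phgdh lies at chr3:98313170-98339990 (minus strand), Psat1 at chr19:15904678-15947337 (minus), Psph at chr5:129765558-129787449 (minus), Shmt1 at chr11:60788104-60811718 (minus) and Shmt2 at chr10:127517123-127522444 (minus). Mthfd1 lies at chr12:76255298-76319803 (plus), Mthfd1l at chr10:3973118-4167081 (plus), Mthfd2 at chr6:83305691-83325908 (minus) and Asns at chr6:7675169-7693254 (minus). The values are reads over whole genes, so they do not separate transcripts of the same gene. Of the exons of Psph, 452 bases (26.1%) also lie in exons of the neighbouring gene Cct6a, and of those of Shmt1, 184 bases (6.44%) lie in exons of Smcr8. Whether the authors' counting used strand is not given in the sources used here, so reads from these stretches cannot be assigned to either gene of a pair, and the neighbours' differences are given beside those of Psph and Shmt1.

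Promoter sequence was set beside the values because the enzymes moved together in some comparisons and apart in others. RefSeq windows of 250 bases before the annotated start (GRCm38.p6) were found for 9 of 9 enzymes, with 10 starts since Psat1 has 2. The windows of Psat1, Shmt1 and Mthfd2 lie inside the GENCODE M21 gene spans given above. For these enzymes the sequence before the outermost GENCODE start was therefore not searched. The stretches shown are those of some of the enzymes with large or opposite responses, cut where they would enter a GENCODE M21 exon. They are Phgdh at chr3:98339991-98340219 (minus strand), the upstream start of Psat1 at chr19:15925060-15925309 (minus), Shmt2 at chr10:127522445-127522694 (minus), Mthfd1l at chr10:3972825-3973074 (plus) and Mthfd2 at chr6:83317607-83317854 (minus). For Asns, 30 bases around a single motif match are given, at chr6:7693214-7693243 (minus), inside an exon of Asns. The windows of Psph and Mthfd1 lie with all 250 bases in annotated exons and are not shown. That of Shmt1 is not shown either. Capitals mark the letters CCAAT on either strand and, in Asns, TGATGNAA.
Phgdh: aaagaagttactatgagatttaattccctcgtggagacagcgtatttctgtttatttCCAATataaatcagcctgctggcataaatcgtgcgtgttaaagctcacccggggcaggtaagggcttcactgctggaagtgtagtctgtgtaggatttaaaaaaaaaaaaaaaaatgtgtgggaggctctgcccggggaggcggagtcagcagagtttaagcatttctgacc
Psat1: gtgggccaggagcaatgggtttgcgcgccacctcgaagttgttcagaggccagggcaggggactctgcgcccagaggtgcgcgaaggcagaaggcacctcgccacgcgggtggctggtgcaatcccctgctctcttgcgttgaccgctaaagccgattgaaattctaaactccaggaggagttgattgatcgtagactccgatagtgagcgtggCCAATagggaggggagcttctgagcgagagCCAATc
Shmt2: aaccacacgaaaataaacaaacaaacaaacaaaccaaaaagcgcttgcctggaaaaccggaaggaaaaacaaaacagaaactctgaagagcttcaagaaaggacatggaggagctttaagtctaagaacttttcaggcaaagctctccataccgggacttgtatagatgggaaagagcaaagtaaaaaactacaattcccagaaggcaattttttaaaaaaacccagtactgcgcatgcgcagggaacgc
Mthfd1l: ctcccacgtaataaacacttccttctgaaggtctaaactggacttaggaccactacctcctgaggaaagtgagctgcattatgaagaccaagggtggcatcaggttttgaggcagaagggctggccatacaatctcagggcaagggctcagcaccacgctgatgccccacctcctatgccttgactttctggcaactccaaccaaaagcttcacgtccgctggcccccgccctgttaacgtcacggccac
Mthfd2: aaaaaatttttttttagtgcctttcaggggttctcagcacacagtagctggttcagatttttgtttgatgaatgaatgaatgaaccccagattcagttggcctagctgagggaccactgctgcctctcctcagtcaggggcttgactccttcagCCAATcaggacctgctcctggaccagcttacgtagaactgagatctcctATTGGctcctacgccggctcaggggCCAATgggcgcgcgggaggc
Asns: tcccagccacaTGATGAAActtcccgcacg

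The letters CCAAT, searched on both strands, occurred in the 250-base windows of 6 of the 9 enzymes (Phgdh, Psat1, Psph, Shmt1, Mthfd1 and Mthfd2), against 33.8% of all 32851 RefSeq windows. Mthfd2 held 3 copies, and the windows of Shmt2, Mthfd1l and Asns held none. In Phgdh a second copy, at bases -23 to -19, lies at the edge of the stretch shown and partly in the exon. TGATGNAA, the core of the element that ATF4 binds together with C/EBP proteins, occurred in 1 of the 9, Asns, at bases -23 to -16 as TGATGAAA, against 3.45% of all windows. The E-box CACGTG, against 6.02% of windows, and the cAMP response element TGACGTCA, against 1.55%, occurred in none of the 9. TTGCATCA, whose reverse complement is a special case of TGATGNAA, was in none of the 9 against 0.791% of windows. With the upstream start of Psat1 counted, the GC box GGGCGG was in 5 of the 9 against 32.7% of windows. The window of the other Psat1 start also held GGGCGG, at bases -11 to -6. All motifs were searched on both strands, and matches of different motifs did not overlap in these windows. A match is a description of the letters in the window and does not show that a factor binds.

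Phgdh, the first enzyme of serine synthesis, had the highest level of the 9 per kilobase of its longest coding transcript in all 8 groups. Its mean ran from 92.4 CPM per kb in UNC1999 cells to 404 CPM per kb in EV cells. Shmt2, the mitochondrial serine hydroxymethyltransferase, was next in 7 of the 8 groups, and in shKdm5b cells Asns took that place at 242 CPM per kb, with Shmt2 at 223 CPM per kb. The lowest place went to Mthfd1 in DMSO, JQEZ5, shKdm5b and shEV cells, to Shmt1 in UNC1999 cells and to Psph in the 3 MLL-AF9 groups. With the union of all exons as the length, an alternative chosen after the data were seen, the first 2 places and the last place were unchanged in every group.

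**Figure D1:**
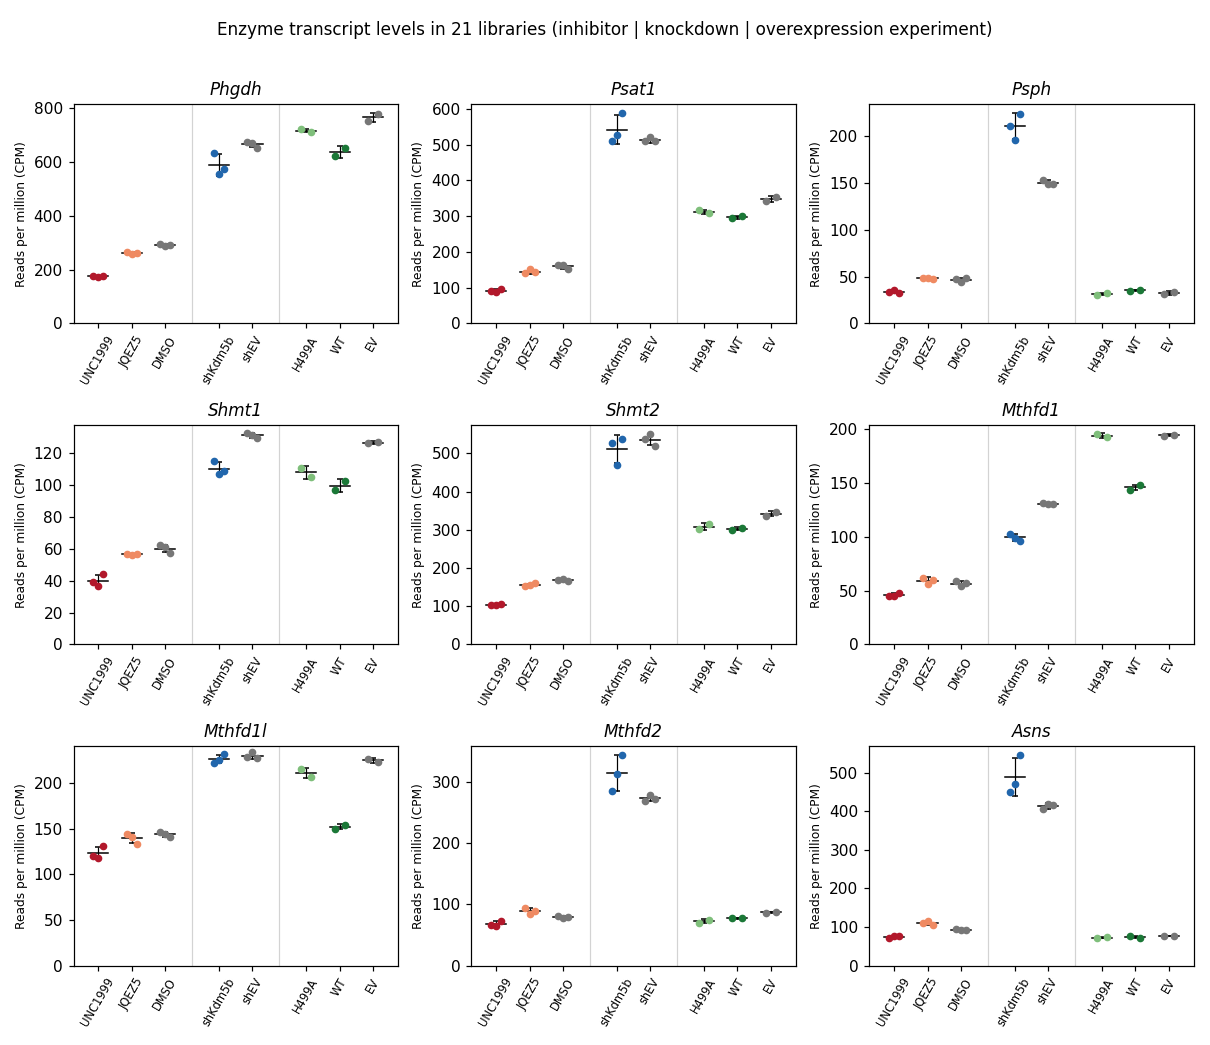
CPM (vertical axis from 0) of each of the 9 enzymes in all 21 libraries, with points for libraries, a bar for the group mean and error bars of 1 SD, in the inhibitor, knockdown and overexpression experiments from left to right. Asns stands near 414 CPM in shEV cells and near 93.3 CPM in DMSO cells, though both are the NUP98-NSD1 line, and every enzyme is lower in UNC1999 than in DMSO libraries.

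The same enzyme could stand at quite different levels in control groups of the same line. Asns averaged 414 ± 7.33 CPM in shEV cells and 93.3 ± 2.51 CPM in DMSO cells (SD, n = 3 each), a 4.43-fold difference. Psph averaged 150.5 ± 2.59 CPM in shEV and 46.7 ± 2.02 CPM in DMSO cells, a 3.22-fold difference. Mthfd2 averaged 273 ± 4.40 CPM in shEV and 79.6 ± 1.82 CPM in DMSO cells, a 3.43-fold difference. The smallest ratio of shEV to DMSO cells among the 9 was 1.60-fold, for Mthfd1l. Kdm5b went the other way, at 2.09 to 3.22 CPM in the shEV libraries and 39.3 to 41.3 CPM in the DMSO libraries. These levels come from tables that were normalised separately, with the library kit of each library not stated, so the differences between experiments were not tested.

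Across all 8 groups the enzymes fell into different orders. Psph, Mthfd2 and Asns were highest in shKdm5b and next highest in shEV cells, with no overlap between those 2 groups or with any other. The levels of Psph and Asns in MLL-AF9 cells were at the low end. For Psph the H499A, EV, UNC1999 and WT cells lay so close that each overlapped its neighbour in the order, at 30.6 to 36.0 CPM. Asns likewise spanned only 70.7 to 77.7 CPM over the H499A, UNC1999, WT and EV libraries. Mthfd2 was low in H499A and WT cells, but its EV libraries, at 86.6 to 87.5 CPM, were above the DMSO libraries (77.8 to 81.5 CPM) and overlapped JQEZ5. Phgdh and Mthfd1 were highest in EV cells, at 765 ± 18.2 and 194 ± 0.766 CPM (SD, n = 2). For Mthfd1 the H499A libraries overlapped the EV libraries. Shmt1 and Shmt2 were highest in shEV cells, Shmt2 with overlap by shKdm5b libraries, and Psat1 in shKdm5b cells with overlap by shEV libraries. Mthfd1l varied least, 1.87-fold from UNC1999 to shEV cells, and Psph and Asns varied 6.70-fold and 6.72-fold between their lowest and highest groups.

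UNC1999 lowered all 9 enzymes relative to DMSO, and the deepest falls were in serine synthesis and serine cleavage. As shares of the DMSO mean in normalised counts, Psat1 fell to 0.599, Phgdh to 0.624, Shmt2 to 0.643, Shmt1 to 0.691 and Psph to 0.761. Asns fell to 0.828, Mthfd1 to 0.849, Mthfd2 to 0.891 and Mthfd1l to 0.892. With JQEZ5 at the same dose and time only 3 enzymes passed the test: Phgdh fell to 0.910 of the DMSO mean, while Mthfd2 and Asns rose 1.14-fold and 1.20-fold. The comparisons ask what inhibition of PRC2 does to expression in these cells, and both inhibitors are set against the same 3 DMSO libraries.

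In the values that follow, a normalised count is a read count divided by the authors' size factor. Phgdh, which oxidises 3-phosphoglycerate, had 2793, 2746 and 2752 normalised counts in UNC1999 libraries, 4098, 3961 and 4032 in JQEZ5 libraries and 4478, 4366 and 4439 in DMSO libraries. The 3 groups did not overlap, with JQEZ5 between the other two. Against DMSO the log2 difference on the variance-stabilised scale was -0.64 ± 0.03 (SE) with UNC1999 and -0.13 ± 0.03 with JQEZ5, with adjusted p of 3.82e-11 and 0.00315 (limma, Benjamini-Hochberg over 10694 genes). Psat1, the aminotransferase that takes the next step, had 1458, 1401 and 1498 counts in UNC1999 libraries, 2179, 2330 and 2211 in JQEZ5 libraries and 2490, 2462 and 2316 in DMSO libraries. All UNC1999 libraries were far below the rest, while JQEZ5 and DMSO overlapped. The Psat1 difference was -0.66 ± 0.04 with UNC1999 (adjusted p = 9.39e-10) and -0.10 with JQEZ5, with a 95% interval from -0.18 to -0.02 and an adjusted p of 0.0606 by limma. Psph, the phosphatase of the last step, had 542, 567 and 508 counts in UNC1999 libraries, 750.3, 758 and 738 in JQEZ5 libraries and 715, 673 and 736 in DMSO libraries. Its UNC1999 libraries were the lowest, and its difference was -0.30 ± 0.04 with UNC1999 and 0.06 with JQEZ5 (95% interval -0.03 to 0.16; adjusted p = 0.332 by limma). The overlapping gene Cct6a was also lower with UNC1999, by -0.19 ± 0.04 relative to DMSO (adjusted p = 0.000531, limma), and it was higher with JQEZ5, by 0.12 ± 0.04 (adjusted p = 0.0234, limma).

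Shmt2 had 1658, 1626 and 1647 normalised counts in UNC1999 libraries, 2389, 2382.5 and 2472 in JQEZ5 libraries and 2552, 2584 and 2538 in DMSO libraries. These groups were also fully apart, but the JQEZ5 difference from DMSO of -0.08 missed the threshold (adjusted p = 0.0808 by limma), against -0.58 ± 0.03 for UNC1999. Shmt1 had 619, 578 and 693 counts in UNC1999 libraries, 879.7, 866 and 879 in JQEZ5 libraries and 939, 921 and 874 in DMSO libraries. Only the UNC1999 libraries stood apart. Its UNC1999 difference from DMSO was -0.42 ± 0.05, and its JQEZ5 difference was -0.05 with a 95% interval from -0.15 to 0.05. The overlapping gene Smcr8 differed from DMSO by -0.08 ± 0.04 with UNC1999 (adjusted p = 0.147) and by -0.14 ± 0.04 with JQEZ5 (adjusted p = 0.0266), by limma.

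Among the folate enzymes, Mthfd1 had 721, 712 and 747 normalised counts in UNC1999 libraries, 960.0, 863 and 924 in JQEZ5 libraries and 887, 816 and 864 in DMSO libraries. Mthfd1l, the mitochondrial formate-releasing synthetase, had 1915, 1861 and 2051 counts in UNC1999 libraries, 2230.4, 2178 and 2060.3 in JQEZ5 libraries and 2212, 2181 and 2141 in DMSO libraries. For both genes the UNC1999 libraries were the lowest and the JQEZ5 and DMSO libraries overlapped. The UNC1999 differences were small, -0.19 ± 0.04 for Mthfd1 and -0.15 ± 0.04 for Mthfd1l.

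Mthfd2 and Asns moved in opposite directions with the 2 inhibitors. Mthfd2, the mitochondrial dehydrogenase and cyclohydrolase, had 1066, 1011 and 1148 normalised counts in UNC1999 libraries, 1456, 1313 and 1371 in JQEZ5 libraries and 1231, 1177 and 1212 in DMSO libraries. Asns had 1124, 1205 and 1182 counts in UNC1999 libraries, 1696, 1772 and 1616 in JQEZ5 libraries and 1448, 1411 and 1382 in DMSO libraries. In both genes every JQEZ5 library was above every DMSO library and every UNC1999 library below. The Mthfd2 differences from DMSO were -0.14 ± 0.04 with UNC1999 and 0.17 ± 0.04 with JQEZ5 (adjusted p 0.016 and 0.0135, limma). Those calls each rested on single libraries: the UNC1999 call was lost without UNC1999 replicate 2 or DMSO replicate 1, and the JQEZ5 call without JQEZ5 replicate 1 or DMSO replicate 2. The Asns differences were -0.23 ± 0.04 and 0.23 ± 0.04 (adjusted p 0.000134 and 0.000448, limma).

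Set against all genes, the 9 of 9 enzymes called lower with UNC1999 compare with 24% of 10694 tested genes called lower and 23.9% called higher. All 3 UNC1999 libraries were below all 3 DMSO libraries in 9 of 9 enzymes, against 28.1% of genes lower and 26.9% higher in this way. The median difference of the 9 was -0.30, against -0.01 for all genes tested. With JQEZ5, 2 of 9 were called higher and 1 of 9 lower, against 13.1% and 10.5% of all genes, so the enzymes' share was not far from the background, and their median was -0.01 against 0.01. Every JQEZ5 library was above every DMSO library in 3 of 9 enzymes and below in 2 of 9, against 22.1% and 19.5% of genes.

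The 2 inhibitors were also compared directly, as 1 pair at matched dose and time. All 9 enzymes were lower with UNC1999 than with JQEZ5, against 17.7% of all genes called lower and 18.7% called higher, with a median difference of -0.37 against -0.00066 over all genes tested. The libraries were apart in 9 of 9, all lower, against 22.1% of genes lower and 23.1% higher. The log2 differences ran from -0.14 for Mthfd1l (95% interval -0.22 to -0.05) to -0.56 for Psat1 (-0.64 to -0.48). Asns differed by -0.46 ± 0.04 (adjusted p = 3.19e-07) and Mthfd2 by -0.31 ± 0.04 (adjusted p = 7.34e-05), by limma. The Mthfd1l call was lost without UNC1999 replicate 2 or JQEZ5 replicate 1. Psph differed by -0.36 and its neighbour Cct6a by -0.31 ± 0.04 (adjusted p = 9.72e-06, limma), in the same direction.

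**Figure D2:**
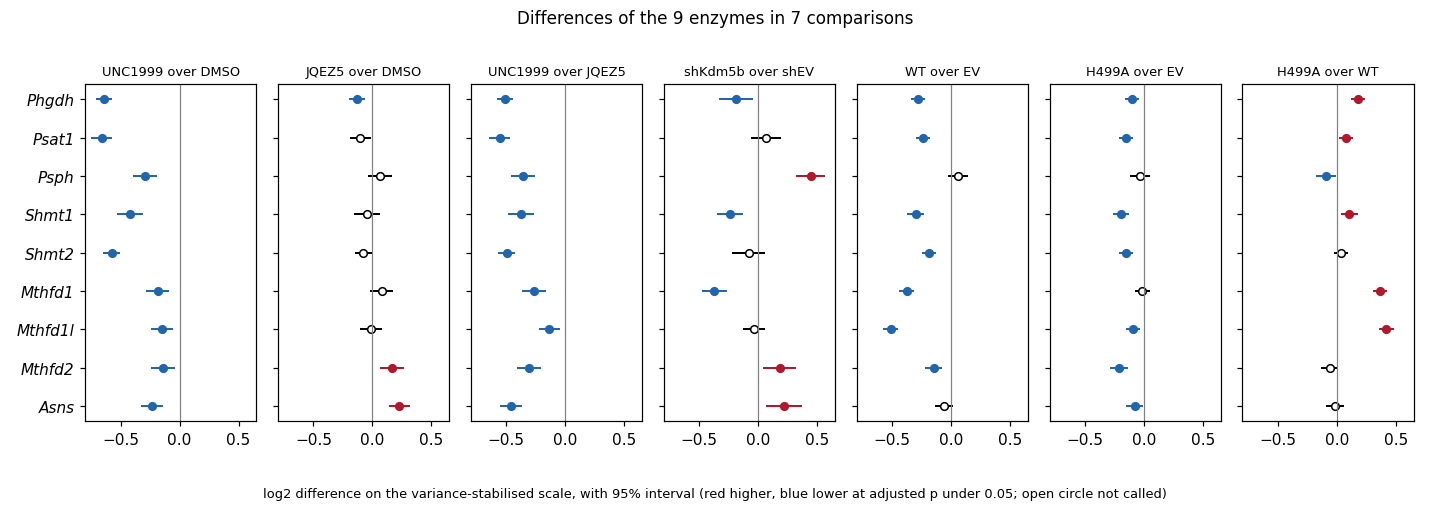
Log2 differences of the 9 enzymes (top to bottom) in 7 comparisons (panels) on the variance-stabilised scale, with 95% intervals from limma; filled red points were called higher and filled blue points lower at an adjusted p under 0.05, and open circles were not called. The UNC1999 panels hold only blue points, the JQEZ5 panel spans 0, and the H499A over WT panel has its largest values at Mthfd1 and Mthfd1l.

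Around the enzymes, calls differed by pathway. In purine synthesis, a main user of folate units, 8 of 10 genes were called lower with UNC1999 and 3 of 10 with JQEZ5, and none higher with either. Ppat, the amidotransferase that commits carbon to purines, had 0.681 of the DMSO mean with UNC1999 and 0.894 with JQEZ5, and Impdh2 had 0.652 and 0.854. In folate supply, the folate carrier Slc19a1 fell to 0.713 of the DMSO mean with UNC1999 and Fpgs, which adds glutamates to folates, fell to 0.774, while the lysosomal hydrolase Ggh rose 1.60-fold. Slc1a5, a carrier of glutamine and other neutral amino acids, had 0.669 of the DMSO mean with UNC1999.

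Genes of the ATF4 group, which share a regulator with the enzymes by textbook knowledge, did not all follow them with UNC1999. Of 18 tested, 7 were called higher and 6 lower with UNC1999, and 6 higher and 1 lower with JQEZ5. Of all genes tested, 23.9% were called higher and 24% lower with UNC1999, and 13.1% and 10.5% with JQEZ5. The genes of the group named next are among those that rose, and those called lower are not named here. The cystine transporter Slc7a11 rose 4.84-fold with UNC1999 and 3.48-fold with JQEZ5, and Atf5 rose 2.21-fold and 2.20-fold. Atf4 itself rose 1.26-fold with JQEZ5. In the same libraries 20 of 20 S phase genes were called lower with UNC1999 and 12 of 20 with JQEZ5, and their summed level was 1952 to 2016 CPM with UNC1999, 2597 to 2625 CPM with JQEZ5 and 2934 to 2963 CPM with DMSO. Macrophage markers were called higher in 10 of 10 genes with UNC1999 and in 9 of 10 with JQEZ5 (1 lower), with a summed level of 17718 to 18355, 12297 to 12366 and 6102 to 6177 CPM with UNC1999, JQEZ5 and DMSO. In bulk RNA, fewer cells of a type and less RNA per cell cannot be told apart, and the part of S phase and macrophage genes in the enzymes' values was not tested.

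Knockdown of Kdm5b split the enzymes. Psph, Asns and Mthfd2 rose 1.39-fold, 1.17-fold and 1.14-fold in shKdm5b relative to shEV cells, while Mthfd1, Shmt1 and Phgdh fell to 0.754, 0.834 and 0.878 of the shEV mean. Psat1, Shmt2 and Mthfd1l did not pass the test. Called higher were 3 of 9 and called lower 3 of 9, against 15% and 17.4% of 10810 tested genes, and the median difference was -0.03 against -0.01 for all genes. The shKdm5b libraries were all above the shEV libraries in 3 of 9 enzymes and all below in 4 of 9, against 22.5% and 26.5% of genes.

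Psph had 6261, 5733 and 6512 normalised counts in shKdm5b libraries, against 4532, 4387 and 4404 in shEV libraries. The groups were widely apart, with a log2 difference of 0.44 ± 0.05 (adjusted p = 0.00036, limma). The overlapping gene Cct6a moved the other way, with a difference of -0.18 ± 0.05 (adjusted p = 0.0168, limma). Mthfd1, the cytosolic folate enzyme, had 3044, 2893 and 2785 counts in shKdm5b libraries, against 3867, 3838 and 3856.5 in shEV libraries. Its fall, -0.37 ± 0.04 (adjusted p = 0.00036, limma), was the largest of the 9. Shmt1 had 3402, 3127 and 3159 counts in shKdm5b libraries and 3917, 3867 and 3832 in shEV libraries, a difference of -0.24 ± 0.04 (adjusted p = 0.00365, limma). The overlapping gene Smcr8 differed by -0.16 ± 0.07 in the same comparison (adjusted p = 0.122, limma). The calls of Psph, Mthfd1 and Shmt1 held without any 1 library.

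The other 3 calls were weaker. Phgdh had 18778, 16206 and 16643 normalised counts in shKdm5b libraries, against 19856, 19691 and 19258 in shEV libraries (-0.19 ± 0.06 on the log2 scale, adjusted p = 0.0389, limma). Asns had 13321, 13719 and 15817 counts in shKdm5b libraries, against 11973, 12355 and 12302 in shEV libraries (0.22 ± 0.06, adjusted p = 0.0301, limma). Mthfd2 had 8466, 9157 and 10008 counts in shKdm5b libraries, against 7974, 8202 and 8031 in shEV libraries (0.18 ± 0.06, adjusted p = 0.0443, limma). None of these groups overlapped, but the shKdm5b libraries spread more than the shEV libraries, with SDs of 1376 and 309 counts for Phgdh, 1341 and 207 for Asns and 772 and 118 for Mthfd2. The Phgdh and Mthfd2 calls were lost when any library other than shKdm5b replicate 1 was left out, and the Asns call without any of the 3 shEV libraries. Their adjusted p then reached 0.139, 0.147 and 0.115 for Phgdh, Mthfd2 and Asns, and the Mthfd2 call was also lost with no filter (adjusted p = 0.0556, limma).

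The enzymes that did not pass had small differences in the knockdown. Psat1 had 15149, 15367 and 17065 normalised counts in shKdm5b libraries, against 15034, 15361 and 15028 in shEV libraries, a log2 difference of 0.06 with a 95% interval from -0.06 to 0.18. Shmt2 had 15584, 13687 and 15572 counts in shKdm5b libraries, against 15868, 16201 and 15371 in shEV libraries, with an interval from -0.21 to 0.05. Mthfd1l had 6578, 6570 and 6722 counts in shKdm5b libraries, against 6745, 6901 and 6723 in shEV libraries, with an interval from -0.12 to 0.05. The groups overlapped in Psat1 and Shmt2, and in Mthfd1l the highest shKdm5b library lay just under the lowest shEV library.

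Read ratios between the enzymes were also taken within each library, which leaves out scaling between libraries. The Mthfd2 to Mthfd1 read ratio was 3.18 ± 0.406 in shKdm5b libraries and 2.09 ± 0.0388 in shEV libraries (SD, n = 3 each), with lowest and highest values of 2.78 and 3.59 against 2.06 and 2.14. Mthfd1l to Mthfd1 was 2.28 ± 0.127 against 1.76 ± 0.0315, and Shmt2 to Shmt1 was 4.63 ± 0.280 against 4.08 ± 0.0940. Within serine synthesis, Psph to Phgdh was 0.359 ± 0.0293 in shKdm5b and 0.227 ± 0.00328 in shEV libraries. None of these 4 ratios overlapped between the groups, and 3 against 3 libraries cannot give an exact permutation p under 0.1. In the inhibitor experiment the ratio of Asns to Phgdh was 0.424 ± 0.0187 with UNC1999, 0.421 ± 0.0240 with JQEZ5 and 0.319 ± 0.00687 with DMSO. The libraries of both inhibitors lay above all DMSO libraries and overlapped each other, although Asns fell with UNC1999 and rose with JQEZ5.

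**Figure D3:**
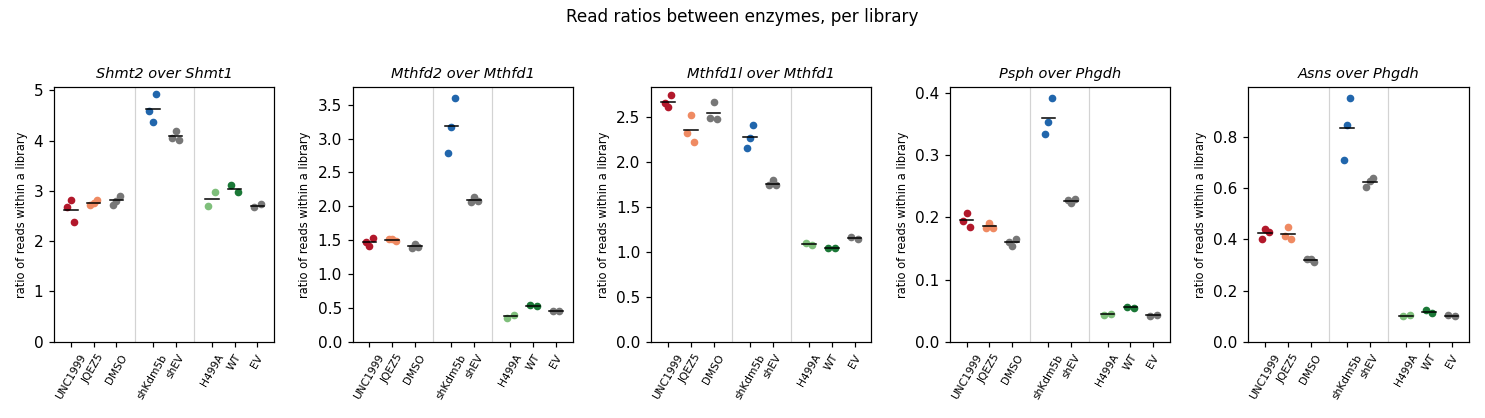
Read ratios between pairs of the enzymes within each library (vertical axes from 0; points are libraries, bars are group means). Mthfd2 over Mthfd1 and Psph over Phgdh are higher in shKdm5b than in shEV libraries without overlap, and Asns over Phgdh is about 0.42 with either inhibitor and 0.319 with DMSO.

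Around the enzymes, 12 of 19 tested genes of the ATF4 group were called higher in shKdm5b cells and 0 lower, at medians of 0.23 for the group and -0.01 for all genes. Nupr1 rose 1.76-fold, Ddit4 1.74-fold, Trib3 1.48-fold and Cebpg 1.31-fold. In transsulfuration, the route from serine and homocysteine to cysteine, 1 of 5 tested genes was called higher and 1 lower. The higher one, Cth, rose 5.93-fold. The glycine transporter Slc6a9 rose 2.01-fold and the serine and alanine transporter Slc1a4 1.41-fold, whereas Slc1a5 fell to 0.823 of the shEV mean. In purine synthesis 1 of 10 genes was called higher and 4 lower, Gart at 0.787 of the shEV mean among them, and the methionine cycle genes Mtr and Ahcy fell to 0.735 and 0.695. S phase genes were called higher in 2 and lower in 8 of 20, with summed levels of 4983 to 5084 CPM in shKdm5b and 5291 to 5320 CPM in shEV libraries. Of 6 mast cell and basophil markers 1, Mcpt8, had a row in the knockdown table; its level was 84.6 to 96.98 CPM in shKdm5b and 2.09 to 2.64 CPM in shEV libraries, while Cpa3 and Fcer1a had no row. Macrophage markers were called higher in 3 and lower in 7 of 10, at 1327 to 1539 CPM in shKdm5b and 1617 to 1644 CPM in shEV libraries. The part of these genes in the enzymes' values was not tested.

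In MLL-AF9 cells, WT Kdm5b lowered 7 of the 9 enzymes relative to EV, with the deepest falls in Mthfd1l and Mthfd1. Mthfd1l fell to 0.663 of the EV mean, Mthfd1 to 0.736, Shmt1 to 0.770, Phgdh to 0.815, Psat1 to 0.837, Shmt2 to 0.867 and Mthfd2 to 0.872. Psph and Asns did not pass the test, though Asns was called lower with median centring (adjusted p = 0.0392, limma) and without WT replicate 1 (adjusted p = 0.0207). The H499A mutant also lowered 7 of 9 relative to EV, to between 0.823 (Mthfd2) and 0.930 (Mthfd1l) of the EV mean, with Psph and Mthfd1 not called. Of 9458 genes, 26.9% were called lower and 22.7% higher with H499A, and 32.4% lower and 29.8% higher with WT. The medians were -0.10 with H499A and -0.23 with WT, against -0.01 for all genes in each. The H499A libraries were below both EV libraries in 7 of 9 enzymes, against 40.9% of genes lower and 34.1% higher in this way, and the WT libraries in 8 of 9, with 1 above, against 41.3% and 38.1%. Both comparisons use the same 2 EV libraries, and every value rests on 2 libraries a group.

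Mthfd1 separated WT from the mutant. It had 3619 and 3563 normalised counts in H499A libraries, 2644 and 2693 in WT libraries and 3613 and 3640.3 in EV libraries. Its WT libraries were low and its H499A libraries overlapped EV, with log2 differences from EV of -0.01 with H499A (95% interval -0.07 to 0.04) and -0.38 with WT (-0.43 to -0.32). Mthfd1l had 3984 and 3836 counts in H499A libraries, 2758 and 2815 in WT libraries and 4232 and 4174 in EV libraries. It too was lowest with WT, and it differed from EV by -0.09 ± 0.03 with H499A and by -0.51 ± 0.03 with WT.

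Phgdh had 13353 and 13190 normalised counts in H499A libraries, 11404 and 11885 in WT libraries and 14036 and 14545 in EV libraries. Shmt1 had 2059.5 and 1948 counts in H499A libraries, 1777 and 1872 in WT libraries and 2356 and 2380.1 in EV libraries. For both genes the H499A libraries lay between the WT and the EV libraries without overlap. Smcr8, which overlaps Shmt1, was higher with WT than with EV, by 0.14 ± 0.03 (adjusted p = 0.000658, limma), and differed by 0.02 ± 0.03 with H499A. Psat1 had 5862 and 5721 counts in H499A libraries, 5413 and 5476 in WT libraries and 6387 and 6620.2 in EV libraries, the same order.

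Shmt2 had 5579 and 5818 normalised counts in H499A libraries, 5524 and 5573 in WT libraries and 6295 and 6497 in EV libraries. In normalised counts it kept that order without overlap, by 5579 in H499A against 5573 in WT libraries. In CPM the H499A and WT libraries of Shmt2 overlapped. Mthfd2 and Asns did not follow that order. Mthfd2 had 1294 and 1384 counts in H499A libraries, 1417 and 1419.9 in WT libraries and 1618 and 1637 in EV libraries, lowest with the mutant. Asns had 1326 and 1367 counts in H499A libraries, 1414 and 1323 in WT libraries and 1446 and 1453 in EV libraries, differing from EV by -0.08 with H499A (adjusted p = 0.0434) and -0.06 with WT (adjusted p = 0.094), by limma. The H499A call for Asns was lost without any of the H499A or EV libraries, with no filter, with quantile normalisation and with eBayes without the trend, with an adjusted p of up to 0.237. Those for Mthfd1l and Phgdh were lost in 2 cases (without H499A replicate 2 or EV replicate 1) and in 1 case (without EV replicate 2), at adjusted p of up to 0.12 and 0.0545.

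Tested against each other, H499A cells had higher Mthfd1l (1.40-fold), Mthfd1 (1.35-fold), Phgdh (1.14-fold), Shmt1 (1.10-fold) and Psat1 (1.06-fold) than WT cells. These 5 of 9 called higher and 1 of 9 called lower compare with 26.3% and 28.2% of all genes. The libraries were apart in 6 of 9 with H499A higher and in 2 of 9 with H499A lower, against 36.2% and 39.6% of genes. The log2 differences were 0.42 ± 0.03 for Mthfd1l (adjusted p = 5.04e-13) and 0.37 ± 0.03 for Mthfd1 (adjusted p = 5.42e-12), by limma. Psph was called lower at 0.898 of the WT mean (adjusted p = 0.042, limma), with 568 and 598 counts in H499A libraries, 645 and 653 in WT libraries and 581 and 637 in EV libraries; that call was lost with no filter, with median centring, with quantile normalisation and without any of the 4 libraries compared. The Psat1 call was lost with quantile normalisation and without H499A replicate 1, and the Shmt1 call without H499A replicate 1 or WT replicate 1. For Shmt2, Mthfd2 and Asns the differences were 0.03 (95% interval -0.02 to 0.09), -0.06 (-0.13 to 0.00) and -0.02 (-0.08 to 0.05). Mthfd2 was called lower without H499A replicate 2 (adjusted p = 0.0445, limma). Cct6a, the neighbour of Psph, was higher in H499A than in WT cells, by 0.20 ± 0.02 (adjusted p = 6.87e-08, limma), and Smcr8, that of Shmt1, lower, by -0.12 ± 0.03 (adjusted p = 0.00322, limma). The Kdm5b transcript was 294 ± 21.5 normalised counts in H499A and 1413 ± 4.48 in WT cells (SD, n = 2 each), so the mutation and the level of the transgene cannot be told apart.

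Purine synthesis was also affected in MLL-AF9 cells. Of 10 genes, 5 were called lower and 2 higher with H499A relative to EV, 8 lower with WT relative to EV, and 8 higher in H499A than in WT cells. Ppat had 0.792 and Paics 0.796 of the EV mean with WT. Tyms, which makes thymidylate with a folate unit, had 0.849 of the EV mean with H499A and 0.700 with WT, and the mitochondrial serine carrier Sfxn1 had 0.908 and 0.737. S phase genes were called lower in 12 and higher in 1 of 20 with H499A, and lower in 17 and higher in 1 of 20 with WT. Their summed level was 5777 to 5796 CPM in H499A, 5075 to 5104 CPM in WT and 6197 to 6270 CPM in EV libraries. Macrophage markers were called higher in 7 of 8 with H499A (0 lower) and in 7 of 8 with WT (1 lower). Their summed levels were 1619 to 1623 CPM in H499A, 2608 to 2745 CPM in WT and 849 to 895 CPM in EV libraries. Of 6 mast cell and basophil markers 1, Mcpt8, had a row. It stood at 3.85 to 4.51 CPM in H499A, 1.94 to 2.80 CPM in WT and 13.03 to 13.05 CPM in EV libraries. Of 6 T and NK cell markers 1 had a row, at 6.87 to 7.06 CPM in H499A, 2.69 to 2.74 CPM in WT and 16.49 to 16.53 CPM in EV libraries. Both genes passed the filter on low values only through their EV libraries. A lower call was thus favoured in advance, so their calls are not read here. The part of these genes in the enzymes' values was not tested.

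**Figure D4:**
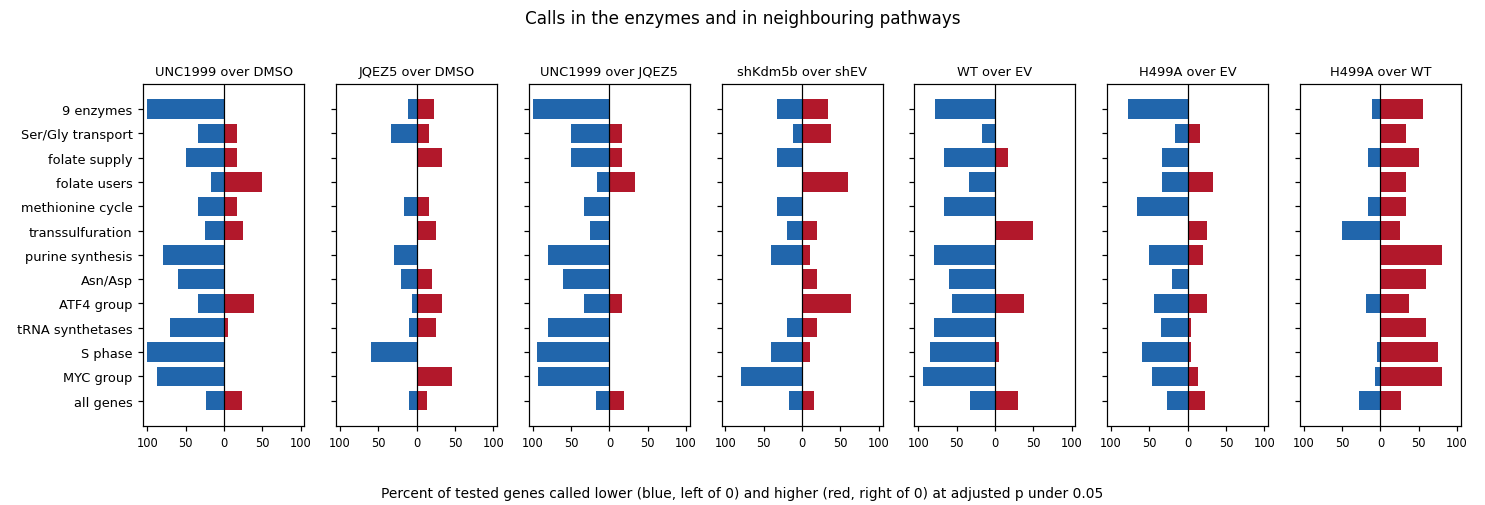
Percent of tested genes called higher (red, right of 0) and lower (blue, left of 0) at an adjusted p under 0.05 in the 9 enzymes, in neighbouring gene lists and in all genes, for each of 7 comparisons. All 9 enzymes are called lower with UNC1999, relative to DMSO and to JQEZ5, and the ATF4 group has its largest share of higher calls in shKdm5b over shEV, 12 of 19.

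The mean of Phgdh was below that of its control in each experiment, and so were the means of Shmt1, Shmt2 and Mthfd1l. With JQEZ5, Shmt1, Shmt2 and Mthfd1l were not called, and with shKdm5b, Shmt2 and Mthfd1l were not. The Phgdh calls with shKdm5b and H499A were lost without some single libraries, as given above. The mean normalised count of Phgdh was 0.624 of the DMSO mean with UNC1999 and 0.910 with JQEZ5. It was 0.878 of the shEV mean with shKdm5b, and 0.929 and 0.815 of the EV mean with H499A and WT. Asns gave 0.828, 1.20, 1.17, 0.929 and 0.944 in the same order. Pairs within an experiment share their controls, so these values stand side by side and are not independent of each other.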

How the data were processed

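RNA-seq values of 21 libraries were taken from 3 tables that the authors deposited, whose log2 values carry a variance-stabilising transformation. STAR 2.4.2, Salmon 0.1.19 and DESeq2 1.38.2 are named, with mm10, in the submitters' processing notes, without their settings. Gene coordinates are those of GENCODE M21 on GRCm38, the assembly that mm10 is. The closed form of the transformation was undone from each table's lowest value. Within each library the resulting normalised counts came out as whole reads times a constant for 100% of values (tolerance 0.05 of a count), which gave whole read counts and the depths in the text. Genes of low count are compressed on the deposited scale, so log2 differences there understate fold changes; ratios in the text are of mean normalised counts. CPM scales the whole counts of a table's genes to a total of 1000000 in each library. In the 7 comparisons, overlap of libraries was judged on the deposited scale, and some narrow cases differ in CPM. In CPM the groups overlap for Psph (JQEZ5 and DMSO), Mthfd1l (shKdm5b and shEV) and Shmt2 (H499A and WT). They are apart in CPM for Psat1 and Shmt1 (JQEZ5 and DMSO).

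Each table was fitted on the deposited values with limma 3.58.1 (R 4.3.3), giving each group its own mean and using the trend option of eBayes. Adjustment of p-values followed Benjamini-Hochberg across every gene tested in the table, and a call needs an adjusted p under 0.05. After the filter 10694, 10810 and 9458 genes of the inhibitor, knockdown and overexpression tables were tested. Kdm5b did not pass that filter in the knockdown table and was taken there from the fit with no filter. The fit was tested on simulated data with known changes. The lowest count of any enzyme in a library was 414 reads (Psph, UNC1999 replicate 3) and the highest 23268 (Phgdh, shEV replicate 2).

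The enzymes and the 20 gene lists beside them were chosen with earlier results of these data known. Named besides the 9 enzymes and Kdm5b are up to 4 called genes with the lowest adjusted p in each pathway list and comparison, and the genes closest in profile to the enzymes' mean; Cct6a, for its overlap with Psph, and the markers Ptprc, Mcpt8 and those without a row were named after their values were seen. Some genes of these lists are not reported here. Alternatives were no filter, a stricter filter of 2 log2 units, quantile normalisation, median centring, a robust or untrended eBayes, voom on the whole counts, a replicate block, a fit of just the pair of groups compared, and the omission of each library.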

Additional observations from a re-analysis of the deposited data

Results flagged for a closer look

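Mthfd2 and Asns responded to the 2 PRC2 inhibitors in opposite directions. Relative to DMSO, UNC1999 lowered both and JQEZ5 raised both, each past the threshold of limma, and the difference between the inhibitors was tested directly. It was -0.306 on the log2 scale for Mthfd2 and -0.461 for Asns, UNC1999 over JQEZ5, with every UNC1999 library below every JQEZ5 library. The direct call was kept under all 18 alternatives for each gene, at adjusted p of up to 0.000643 for Mthfd2 and 1.67e-05 for Asns (limma). UNC1999 and JQEZ5 share the DMSO libraries in the first 2 comparisons but not in the direct one.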

How the results depend on the processing

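No enzyme's called difference reversed under any alternative. In JQEZ5 over DMSO, where 1 enzyme was called lower, 3 were with median centring and with quantile normalisation (Psat1 and Shmt2 added) and 2 with only the 2 groups compared; leaving out a library gave 1 to 2 lower and 1 to 2 higher. In shKdm5b over shEV, 3509 genes were called, and 1914 to 5579 when a library was left out; 1 to 3 enzymes were then called higher, 1 without each shEV library. In H499A over WT, where 1 enzyme was called lower, 0 were with no filter, with the filter at 2 log2 units (Psph is not tested there), with median centring and with quantile normalisation; without 1 library 0 to 1 were called lower and 3 to 5 higher. The cause of these shifts was not tested. With the replicate block, 5028 genes were called in UNC1999 over DMSO, 2382 in JQEZ5 over DMSO and 3491 in shKdm5b over shEV, and no count of called enzymes moved. The replicate numbers share only a number: deviations of same-numbered libraries correlated at -0.15 to 0.22. The voom fit of whole counts called 5044, 2591 and 3538 genes in those comparisons, with the same numbers of enzymes. With 2 libraries a group in MLL-AF9 cells, the lone library left in a group is assumed to vary like the others.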

Other observations

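The genes whose profile was closest to the mean of the 9 scaled enzymes over the 9 inhibitor libraries were Mybbp1a (Pearson r = 0.995), Kpnb1 (0.990), Hsph1 (0.986), Ms4a3 (0.986) and Fdps (0.985), out of 456 of 10685 genes compared with an r above 0.9. Each single enzyme correlated with that mean at 0.868 (Mthfd2) to 0.966 (Shmt1). In the 6 knockdown libraries the closest were Srebf2 (0.990), Cnnm3 (0.987), Zfp777 (0.984), Mex3d (0.981) and Prr3 (0.979), out of 56 genes above 0.9, but the enzymes themselves ranged from -0.10 (Psph) to 0.85 (Shmt2) with their mean, so that mean describes few of them. In the 6 overexpression libraries Tmem209, Pim3, Hmgn5, Mcm7 and Tbc1d22a were closest, at 0.996 to 0.997, out of 982 of 9449 genes above 0.9, and the enzymes ranged from -0.23 (Psph) to 0.99 (Shmt2). The points share libraries and groups, so these values describe the profiles and carry no test.

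In MLL-AF9 cells the ATF4 group, like all genes tested, had more genes called lower than higher with both forms of Kdm5b. Of 16 tested, 4 were called higher and 7 lower with H499A, and 6 higher and 9 lower with WT, relative to EV, with medians of -0.06 and -0.11. Of all genes tested, 22.7% were called higher and 26.9% lower with H499A, and 29.8% and 32.4% with WT. Their median was -0.01 with each form. No enzyme was called higher in either comparison. The genes of the group called lower, the larger number with both forms, are not named here. Among the fewer genes that rose with both, Cebpb, a C/EBP transcription factor, was 2.45-fold higher with H499A and 1.80-fold higher with WT. Slc7a11, the cystine transporter, had 285 ± 25.7 normalised counts with H499A, 228 ± 1.41 with WT and 69.3 ± 7.31 with EV (SD, n = 2 each). Stc2, a secreted glycoprotein hormone, had 124 ± 4.03 with H499A, 263 ± 11.7 with WT and 18.6 ± 2.64 with EV. The filter on low values stood at 145 normalised counts in this table. Slc7a11 passed it only through its H499A and WT libraries and Stc2 only through its WT libraries. Their values are therefore given as levels and not as tests. In glutathione synthesis, which lies downstream of cysteine, Gclm was 1.12-fold higher with H499A and 1.88-fold higher with WT than with EV.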
